A study of Mus musculus with 346 samples.

Results

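The collagen chain genes were followed in single mammary cells at 3 stages of post-natal development. Every gene whose mouse symbol is Col, a number, the letter a and a number was taken, after Entrez identifiers had been matched to symbols. This gave 44 of the 27179 genes listed in each cell's file. They were grouped as 11 fibrillar genes, 8 basement membrane genes and 25 other genes. The cells came from FVB/NJ mice, an inbred laboratory strain, and all were wild type and untreated. The stages were pre-puberty (2 weeks, 144 cells), puberty (4.7 to 4.9 weeks, 136 cells) and adult (10 weeks, 66 cells). Each stage had 8 mice per the labels, which name no mouse for any cell, and other numbers of mice per sort are given in the study. Each stage is therefore 1 sample, no test was made and no difference below has a replicate check.

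Collagens are the main structural proteins of the extracellular matrix. Each chain carries stretches in which glycine recurs at a regular spacing, and such chains wind around each other as a triple helix. Fibrillar collagens (types I, II, III, V, XI, XXIV and XXVII) pack into the fibrils of connective tissue, and stromal fibroblasts are a known main source of them in the mammary gland. Type IV collagen forms the sheet-like network of basement membranes, on which the outer, basal layer of the mammary duct rests and which also wraps Schwann cells, the glia of peripheral nerves. Types XV and XVIII lie in basement membrane zones. The remaining types sit on fibril surfaces, form beaded filaments or short networks, or span the cell membrane.

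The repeat that defines these chains is shown first, for 1 gene of each pattern described below. Each line gives the first 90 bases of the longest unbroken glycine repeat in the longest open reading frame of the gene's GENCODE M21 transcripts. Capitals mark the glycine codon that opens each triplet, and any other glycine codon is in lower case.
Col3a1: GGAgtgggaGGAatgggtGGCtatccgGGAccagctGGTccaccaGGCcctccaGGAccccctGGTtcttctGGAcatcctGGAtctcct
Col4a1: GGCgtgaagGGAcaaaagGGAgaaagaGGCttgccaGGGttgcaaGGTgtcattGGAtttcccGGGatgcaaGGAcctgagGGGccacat
Col28a1: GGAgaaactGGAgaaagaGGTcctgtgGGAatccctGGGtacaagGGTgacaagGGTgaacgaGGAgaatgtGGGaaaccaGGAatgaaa
Col8a1: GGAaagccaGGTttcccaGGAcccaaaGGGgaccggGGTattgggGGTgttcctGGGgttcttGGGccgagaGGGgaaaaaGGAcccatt
The length of that repeat set the fibrillar group apart from the rest, whose ranges overlapped. The longest unbroken run was 216 to 344 triplets in the 11 fibrillar genes (median 338), 30 to 66 in the 8 basement membrane genes (median 41) and 23 to 113 in the 25 others (median 52). Col3a1 had a run of 344 triplets that began at codon 164. Col4a1 had 40 in its longest run and 443 triplets spread over 22 runs of 5 or more, and Col28a1 had 28 and 178 over 17 such runs.

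Levels are given as CPM, the reads of a gene summed over the cells of a group and scaled to 1000000 summed reads of that group. Their exact Poisson interval at 95% covers counting error only. Cells were required to retain 100000 reads and 1500 genes once mitochondrial, ribosomal protein and unannotated genes had been taken out, which left 116, 119 and 44 cells with 109387 to 1189103 reads. Shares of cells count cells with at least 1 read after each cell was thinned to 100000 reads, with an exact (Clopper-Pearson) binomial interval at 95%. Cells with Krt14 above 40 RPKM (CPM divided by the deposited gene length in 1000 bases) and neither Krt8 nor Krt18 above it were called Krt14-positive, and the reverse Krt8/18-positive. There were 5 and 80 such cells at puberty and 5 and 22 in the adult, besides 24 and 14 cells with both. Krt8 and Krt18 have pseudogenes, so their values are uncertain. Within 20 to 80 RPKM, close to the threshold, lay Krt14 in 6, 4 and 5 cells at pre-puberty, puberty and in the adult, and Krt8 or Krt18 in 3, 4 and 7.

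The labels call all cells epithelial, and at pre-puberty most cells lacked the general and luminal epithelial markers. The median pre-pubertal cell had 0 of 10 such markers and 9 of 12 Schwann cell markers, whereas pubertal cells had 8 and 1, and adult cells 6 and 1. Krt14-positive cells of both later stages also had a median of only 3 of 10. That list holds Krt8 and Krt18, which the rule for this class keeps low, so the low count was partly set by the rule. Of 10 basal markers, the epithelial genes of the outer layer, the median was 2, 2 and 6 at the 3 stages, with summed levels of 2001, 3556 and 9447 CPM. Of the 116 kept pre-pubertal cells, 97 had neither keratin above 40 RPKM. They are called pre-pubertal cells here and given no other name. Fibroblast markers other than collagens were detected at a median of 0, 1 and 1 of 12 at the 3 stages, and 5 pre-pubertal, 9 pubertal and 4 adult cells had 5 or more of them. These are called fibroblast-marker cells, whatever their keratins, and values are also given without them. In this order of stages the summed CPM of the fibroblast list was 831, 2057 and 1698, and that of the Schwann list 13254, 1383 and 284.

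Pre-pubertal cells carried about 4 times the collagen reads of the later stages, and nearly all cells shared in this. The 44 genes together had 12044.5 CPM at pre-puberty, against 3058 at puberty and 3031 in the adult. Single cells ranged from 1929 to 145596 CPM with a median of 11510 at pre-puberty, from 1.76 to 23376 with a median of 1315 at puberty, and from 43.6 to 11582 with a median of 1291 in the adult. The medians of pre-puberty and the later stages were thus further apart than the summed levels, while the ranges overlapped. The median pre-pubertal cell had reads of 16 members after thinning, against 6 at puberty and 5.5 in the adult.

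**Figure D1:**
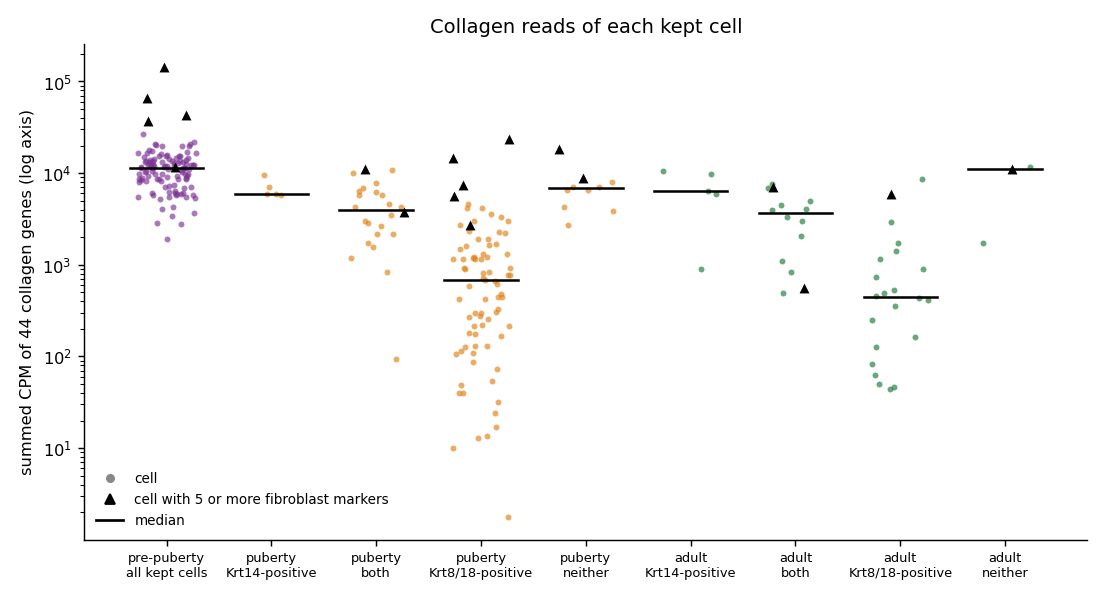
Summed CPM of the 44 collagen genes (log axis) in each of the 279 kept cells, by stage and keratin class, with a line at the median and triangles for cells with 5 or more of 12 fibroblast markers. The pre-pubertal cells sit around 11510 CPM and the Krt8/18-positive cells around 674 at puberty and 446 in the adult, with the Krt14-positive cells between them at 5972 and 6405.

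The difference lay mainly in the fibrillar group. Its summed level was 8599 CPM at pre-puberty, against 1003 at puberty and 489 in the adult, a log2 ratio of pre-puberty over puberty of 3.09 and over the adult of 4.12. The basement membrane group had 2108, 1144 and 1588 CPM (log2 ratios 0.88 and 0.41), and the other collagens 1338, 911 and 954 CPM (0.55 and 0.49). For log2 ratios 5 CPM was first added to either side, so that differences of low genes are understated. The 3 stage comparisons share their cells and are not independent of each other. Between pre-puberty and puberty, 18 of 44 members were higher at pre-puberty by a log2 ratio of at least 1 (8 fibrillar, 2 basement membrane and 8 others), where 9.43% of all 25141 genes analysed were. In the other direction 8 were lower, against 10.5% of all genes. The median log2 ratio was 0.52 over the members and 0 over all genes. Genes with a mean of at least 10 CPM over the 3 stages included 28 members. Of these, 18 were higher, against 18.9% of such genes, and 6 were lower, which is near the 22.1% of such genes.

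Against the adult, 20 members were higher at pre-puberty, where 14.2% of all genes were, and 6 were lower, where 11.9% were. Between puberty and the adult the members stood close to the background. Here 8 were higher at puberty (12.7% of all genes) and 5 lower (8.26%), with a median log2 ratio of 0.15. Without the fibroblast-marker cells the counts were 18 and 8, 20 and 6, and 8 and 6 for the 3 comparisons in this order. The shares of all genes were then 9.74% and 10.6%, 14.4% and 11.8%, and 12.9% and 8.29%. Without the cell that held most reads of each gene in each group, the members lower at puberty than in the adult went from 5 to 2. The share of all genes went from 8.26% to 2.84%.

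**Figure D2:**
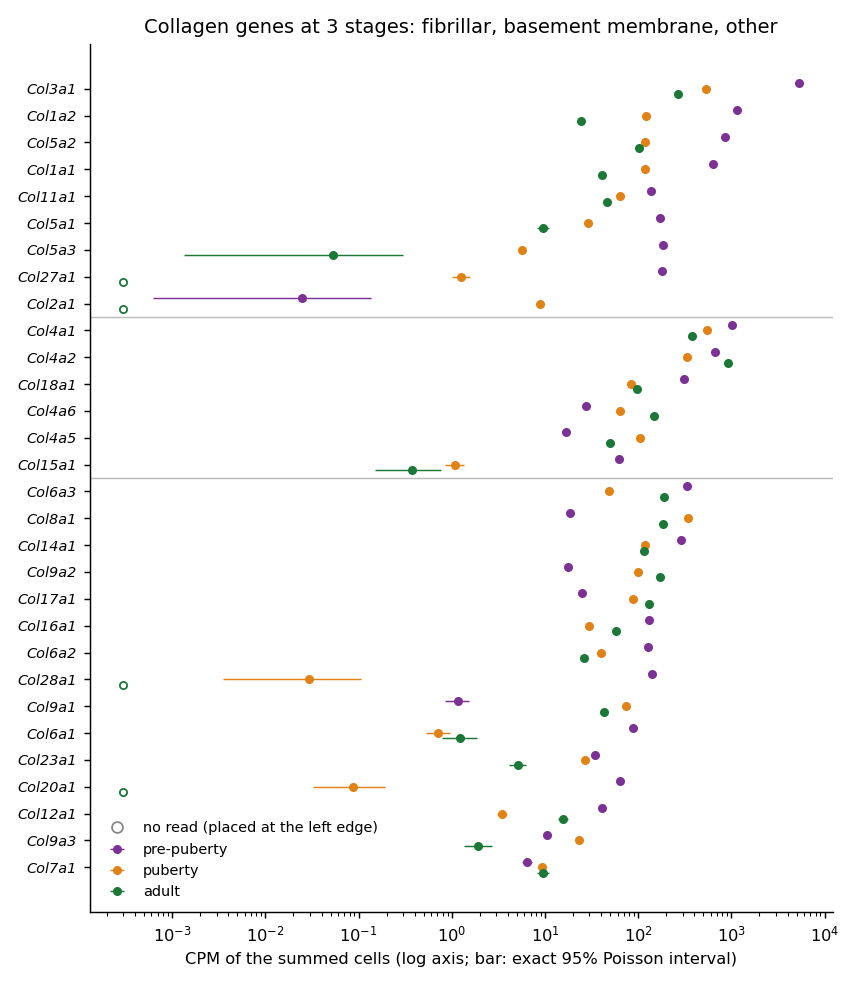
CPM of the summed cells (log axis) of the 30 collagen genes at 10 CPM or more in at least 1 group, at pre-puberty, puberty and in the adult, with exact 95% Poisson intervals and open circles where no read was found. The fibrillar genes at the top other than Col2a1 stand furthest right at pre-puberty, Col3a1 at 5283 against 528 and 265 CPM, whereas Col8a1, Col9a1, Col9a2 and Col17a1 stand to the left.

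Col3a1 (Entrez 12825; chromosome 1, 45311538 to 45349706, GRCm38), the chain of type III collagen, was the most abundant collagen of pre-pubertal cells per length, at 949 RPKM. It had 5283 CPM (5261 to 5305) at pre-puberty, against 528 (523 to 534) at puberty and 265 (258 to 273) in the adult. Single pre-pubertal cells held from 156.4 to 92120 CPM with a median of 4123, and every one of the 116 had a read (100%, 96.9 to 100). At puberty 17 of 119 cells had one (14.3%, 8.55 to 21.9) and in the adult 6 of 44 (13.6%, 5.17 to 27.4), so the median cell of both later stages was at 0. In the adult 82.5% of the reads came from 1 cell, and 47.6 CPM remained when it was left out.

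The chains of type I collagen, Col1a1 (Entrez 12842; chromosome 11, 94936224 to 94953042) and Col1a2 (Entrez 12843; chromosome 6, 4505618 to 4541543), followed the same order. Col1a2 had 1155, 122 and 24.1 CPM and was found in 98.3%, 9.24% and 15.9% of cells. Col1a1 had 639, 117 and 40.5 CPM and was found in 94.0%, 20.2% and 11.4% of cells. Single pre-pubertal cells ranged from 0 to 19413 CPM for Col1a2 (median 912) and from 0 to 24353 for Col1a1 (median 355). Since both chains build the same molecule, their detection in the same cell was counted. Both were detected in 108 of 116 pre-pubertal cells, 1 of them alone in 7 and neither in 1. At puberty both were found in 11 of 119 cells, Col1a1 alone in 13 and Col1a2 alone in 0. Per length, Col1a1 stood at 0.604 of the Col1a2 level at pre-puberty.

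Type V chains regulate the diameter of collagen fibrils, and all 3 of them were higher at pre-puberty. Col5a2 (Entrez 12832; chromosome 1, 45374331 to 45503282) had 851 CPM (842 to 860) against 117 and 103, and was present in 97.4%, 16.8% and 11.4% of cells. In the adult a single cell held 94.0% of its reads, and 6.38 CPM were left without it. Col5a1 (Entrez 12831; chromosome 2, 27886381 to 28039510) had 170, 29.0 and 9.58 CPM. Col5a3 (Entrez 53867; chromosome 9, 20770050 to 20815117) stood at 183 CPM at pre-puberty (cells from 0 to 1465, median 81.3), against 5.695 at puberty and 0.0535 in the adult, which was a single read. Col5a1 and Col5a3 were each found in 90 of 116 pre-pubertal cells (77.6%, 68.9 to 84.8) and in 15 and 7 of 119 pubertal cells.

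Col27a1 (Entrez 373864; chromosome 4, 63214009 to 63334991), a fibrillar chain known from cartilage, was found mostly at pre-puberty. It had 179 CPM at pre-puberty (cells from 0 to 860, median 91.2) and was found in 99 of 116 cells (85.3%, 77.6 to 91.2). At puberty it had 1.26 CPM in 2 of 119 cells, and in the adult no read in 44 cells. At a limit of 3 reads over the adult cells, the summed pre-pubertal level would be at least 1117-fold higher. This bound covers read counting only and not the sampling of 44 cells. Col11a1 (Entrez 12814; chromosome 3, 114030479 to 114220756), a minor fibril chain, differed less. It had 139, 64.5 and 46.5 CPM and was found in 44.0%, 35.3% and 11.4% of cells. Col2a1, the main chain of cartilage fibrils, had 8.78 CPM at puberty, of which 1 cell held 71.0%, and at most 1 read at the other stages. Col24a1 had 619 reads at puberty, 92.7% of them in 1 cell, and 2 or fewer at the other stages, and Col11a2 stayed under 0.3 CPM at each stage.

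At the later stages most reads of the type I and type III genes lay in the few fibroblast-marker cells. These 9 pubertal cells held 95.5% of the pubertal Col3a1 reads, 98.5% of those of Col1a2 and 66.2% of those of Col1a1. The 4 adult ones held 99.3%, 66.7% and 91.4%. Of the adult reads of Col5a2 and Col11a1 they held 1.72% and 5.52%. Without them Col3a1 was at 25.7 CPM at puberty and 2.11 in the adult. In pre-pubertal cells the 5 fibroblast-marker cells held 18.8% of the Col3a1 reads, and without them the level was 4408 CPM. In those 5 cells Col3a1 ranged from 5735 to 92120 CPM, and in the other 111 its highest value was 14855. For the fibrillar group as a whole, 16.0% of the pre-pubertal reads, 79.5% of the pubertal and 67.4% of the adult reads lay in such cells. The log2 ratio of its summed level for pre-puberty over puberty was 5.03 without them.

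Of the 9 pubertal fibroblast-marker cells, 5 were Krt8/18-positive, 2 had both keratins and 2 neither. Their epithelial markers ranged from 1 to 8 of 10, and 6 of them had 7 or 8. The cell with the most Col3a1 among the Krt8/18-positive ones had 10829 CPM, with 11 of 12 fibroblast markers and 7 of 10 epithelial markers. One Krt8/18-positive cell with 5 fibroblast markers had no read of Col1a1, Col1a2 or Col3a1. Whether such cells are single cells was not tested here, and no doublet caller was run. Each of the 111 pre-pubertal cells that were not fibroblast-marker cells had a Col3a1 read and at least 5 of 12 Schwann markers, and the part of the cell type behind those markers in the fibrillar levels was not tested.

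**Figure D3:**
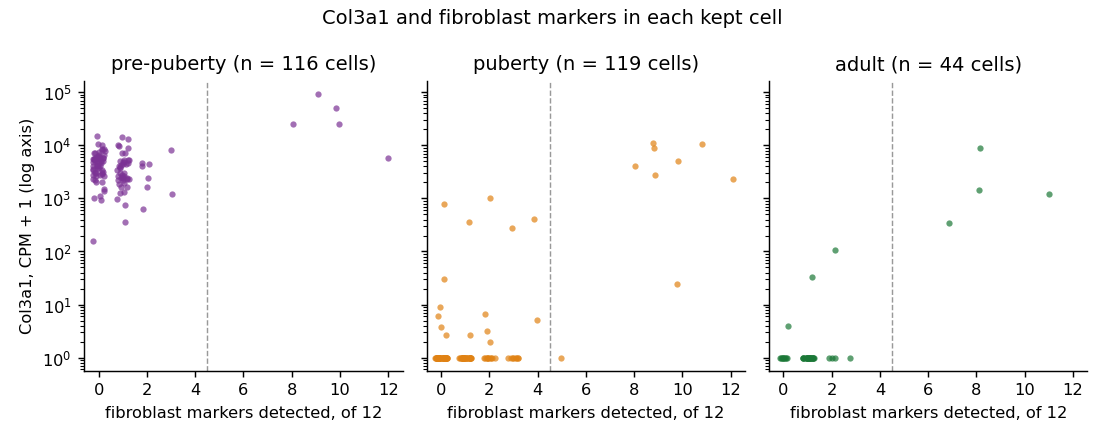
Col3a1 level (CPM + 1, log axis) of each kept cell against the number of 12 non-collagen fibroblast markers with a read at 100000 reads per cell, with a dashed line at the threshold of 5. Pre-pubertal cells carry Col3a1 with 0 to 3 such markers, whereas at puberty and in the adult most cells left of the line have no Col3a1 read.

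The main type IV chains are encoded by Col4a1 (Entrez 12826; chromosome 8, 11198423 to 11312889, minus strand) and Col4a2 (Entrez 12827; chromosome 8, 11312805 to 11449287, plus strand), which are read in opposite directions from a shared region. Their RefSeq starts (GRCm38.p6) lie 21 bases apart at 11312826 and 11312805, with each transcript crossing the start of the other. The library kit does not keep the strand, so reads in that overlap cannot be assigned to 1 gene. The windows from 250 bases before to 50 after each start are printed because both genes were compared cell by cell. In capitals are matches on either strand to CCAAT and to GGGCGG, the letters of the CCAAT box and the GC box.
Col4a1, chr8:11312777-11313076, minus strand: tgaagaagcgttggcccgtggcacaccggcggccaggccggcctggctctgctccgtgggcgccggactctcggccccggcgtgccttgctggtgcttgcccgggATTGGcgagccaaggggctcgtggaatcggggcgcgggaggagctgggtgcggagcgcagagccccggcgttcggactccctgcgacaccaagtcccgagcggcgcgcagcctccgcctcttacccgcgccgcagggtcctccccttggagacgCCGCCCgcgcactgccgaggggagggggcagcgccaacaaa
Col4a2, chr8:11312555-11312854, plus strand: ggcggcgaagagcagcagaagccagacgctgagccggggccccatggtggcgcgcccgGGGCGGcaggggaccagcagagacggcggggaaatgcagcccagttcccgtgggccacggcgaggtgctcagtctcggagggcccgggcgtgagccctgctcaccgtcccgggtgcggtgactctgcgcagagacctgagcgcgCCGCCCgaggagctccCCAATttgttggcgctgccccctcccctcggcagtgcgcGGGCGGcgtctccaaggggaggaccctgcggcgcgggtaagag
GGGCGG was found in 22 of the 35 collagen promoters with a RefSeq window (62.9%) and in 35.9% of all 27025 windows of that length. CCAAT was in 12 of 35 (34.3%, against 37.9% of all), and TATAAA, the TATA box, in 5 (14.3%, against 14.2%). Neither printed window held TATAAA. These are matches of letters only.

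Col4a1 and Col4a2 were the collagens with the widest presence after puberty. Col4a1 had 1014 CPM at pre-puberty (cells from 4.45 to 6697, median 769), against 551 at puberty (0 to 4696, median 7.07) and 374 in the adult (0 to 3390.5, median 13.5). It was found in 99.1%, 55.5% and 61.4% of cells. Col4a2 had 667, 338 and 913 CPM, in 97.4%, 60.5% and 61.4% of cells, and a single adult cell held 19.0% of its reads. Both genes were found together in 112 of 116 pre-pubertal cells. At puberty 54 of 119 cells had both, 12 Col4a1 alone, 18 Col4a2 alone and 35 neither, and in the adult 22 of 44 had both, 5 each alone and 12 neither. Per length, Col4a1 stood at 1.48 and 1.59 times Col4a2 at pre-puberty and puberty and at 0.398 of it in the adult.

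**Figure D4:**
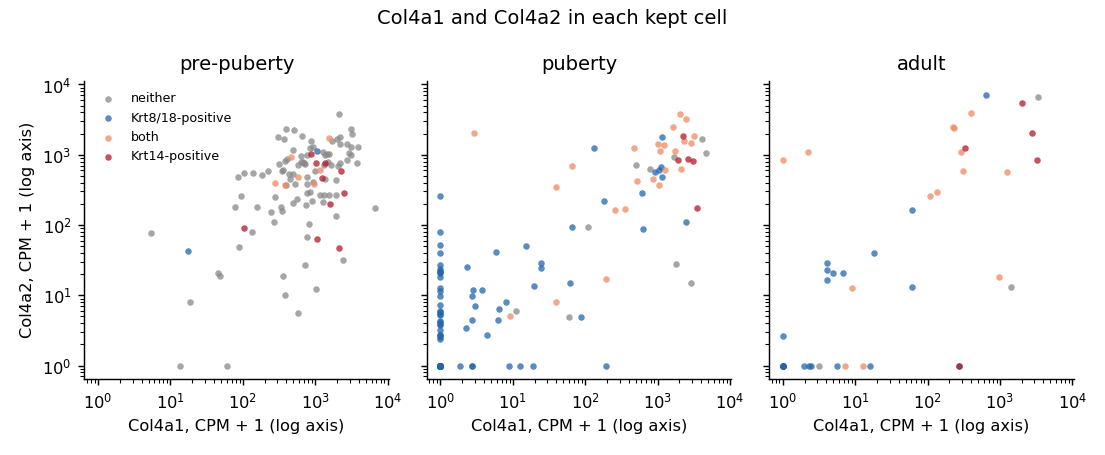
Col4a1 against Col4a2 (CPM + 1, both log axes) in each kept cell at the 3 stages, with cells coloured by keratin class. Pre-pubertal cells form 1 cloud with both genes, whereas at puberty and in the adult the Krt14-positive cells and those with both keratins lie mostly at the upper right and many Krt8/18-positive cells at or near 0.

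The minor type IV chains behaved otherwise. Col4a5 (Entrez 12830; chromosome X, 141475370 to 141689236) and Col4a6 (Entrez 94216; chromosome X, 141165403 to 141474095) are also neighbours on opposite strands, with starts 1343 bases apart. Col4a5 had 16.7 CPM at pre-puberty, against 105 at puberty and 49.9 in the adult, in 20.7%, 49.6% and 11.4% of cells. Of its adult reads, 1 cell held 56.5%. Col4a6 had 27.8, 64.45 and 149.5 CPM, in 25.9%, 39.5% and 38.6% of cells. Both had their lowest CPM at pre-puberty, where Col4a1 had its highest. For Col4a5 the share of cells was lowest in the adult, and the log2 ratio between pre-puberty and the adult, -1.34, was -0.47 without the top cell of each stage and -0.46 under a stricter coverage filter. At puberty 24 cells had both, 35 Col4a5 alone and 23 Col4a6 alone, so they were found together less widely than Col4a1 and Col4a2. Col4a3 and Col4a4, chains of the kidney filter, stayed under 6 CPM at each stage, and no kept cell had both.

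Col18a1 (Entrez 12822; chromosome 10, 77052178 to 77166530), whose end fragment is endostatin, reached 313 CPM at pre-puberty (cells from 0 to 2731, median 164), against 82.8 at puberty and 96.4 in the adult. Its share of cells was 86.2% (78.6 to 91.9) at first, 29.4% at puberty and 31.8% in the adult, where 1 cell held 67.7% of the reads. Col15a1 was nearly absent later. It had 62.4 CPM in 80 of 116 pre-pubertal cells, 1.08 in 7 of 119 pubertal cells and 0.375 in 1 of 44 adult cells.

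Among the other collagens, type VI chains form beaded filaments around cells from Col6a1, Col6a2 and a further chain such as Col6a3. Col6a3 (Entrez 12835; chromosome 1, 90766860 to 90844001) had 332, 48.4 and 188 CPM, in 80.2%, 22.7% and 36.4% of cells. Col6a2 (Entrez 12834; chromosome 10, 76595756 to 76623630) had 129, 39.5 and 26.0 CPM, in 59.5%, 10.1% and 11.4% of cells. A single cell held 87.3% of its pubertal and another 87.2% of its adult reads, and 5.08 and 3.37 CPM were left without them. Col6a1 had 88.8 CPM in 38 pre-pubertal cells, 0.716 at puberty and 1.23 in the adult. All 3 were therefore seen at pre-puberty, whereas Col6a3 was mostly found without the other chains later. Of the 27 pubertal cells with Col6a3, 1 had Col6a1 and 6 had Col6a2, and of 93 such pre-pubertal cells, 33 and 55 did.

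The fibril-associated chains split by stage. Col14a1 (Entrez 12818; chromosome 15, 55307644 to 55520803) reached 290 CPM at pre-puberty (cells from 0 to 3050, median 38.3), against 117 at puberty and 116 in the adult, in 73.3%, 31.1% and 27.3% of cells. Col16a1 (Entrez 107581; chromosome 4, 130047817 to 130099277) had 129, 29.6 and 57.2 CPM, in 77.6%, 33.6% and 38.6% of cells. Col12a1 had 40.5, 3.45 and 15.7 CPM. Col20a1 had 64.3 CPM in 36 pre-pubertal cells, 0.0876 at puberty, which was 6 reads, and none in the adult. Of the type IX chains, which decorate cartilage fibrils, Col9a1 and Col9a2 were lowest at pre-puberty, whereas Col9a3 was lowest in the adult. Col9a2 (Entrez 12840; chromosome 4, 121039566 to 121055325) had 17.7, 100.2 and 172 CPM, in 12.1%, 26.9% and 22.7% of cells. Col9a1 (Entrez 12839; chromosome 1, 24177589 to 24252738) had 1.15, 73.5 and 42.8 CPM, with 46.2% of the pubertal and 86.8% of the adult reads in 1 cell each. Col9a3 (Entrez 12841; chromosome 2, 180598102 to 180622192) had 10.6, 23.0 and 1.93 CPM. At puberty 17 of the 23 cells with Col9a1 also had Col9a2.

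Col28a1 (Entrez 213945; chromosome 6, 7997100 to 8193709), a collagen known from the surroundings of non-myelinating Schwann cells, was detected almost exclusively at pre-puberty. It had 140 CPM (137 to 144), with cells from 0 to 1856 and a median of 15.9, and was found in 65 of 116 cells (56.0%, 46.5 to 65.2). The 119 pubertal cells had 2 reads in all (0.0292 CPM), and after thinning 0 of 119 had one (0%, 0 to 3.05, or up to 2.52% at a limit of 3 cells), which limits the share of cells with a read and not of cells that express the gene. The 44 adult cells had none, so at the limit of 3 reads the summed pre-pubertal level would be at least 874-fold higher. That bound, too, covers read counting only and not the sampling of 44 cells. The Schwann list was present in the same pre-pubertal cells, and its part in the Col28a1 level was not tested.

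Col8a1 (Entrez 12837; chromosome 16, 57624256 to 57754737), a short chain that forms networks, was the opposite. It had 18.4 CPM (17.1 to 19.7) at pre-puberty, against 343 (338 to 347) at puberty and 187 (180 to 193) in the adult. Before puberty 6 of 116 cells had a read (5.17%, 1.92 to 10.9). This compared with 58 of 119 at puberty (48.7%, 39.5 to 58.1) and 19 of 44 adult cells (43.2%, 28.3 to 59.0). Pubertal cells ranged from 0 to 4152 CPM with a median of 3.29. In the adult 1 cell held 58.2% of the reads, and 81.0 CPM were left without it. Its close relatives Col8a2 and Col10a1 stayed under 5 CPM at each stage. Col17a1 (Entrez 12821; chromosome 19, 47646341 to 47692042), the membrane-spanning collagen of hemidesmosomes, which anchor basal cells to the basement membrane, had 24.7, 87.3 and 131 CPM, in 20.7%, 39.5% and 29.5% of cells. Col7a1, the anchoring fibril chain, had 6.49, 9.39 and 9.58 CPM. Col23a1, another membrane-spanning chain, had 34.4, 26.8 and 5.08 CPM in no more than 10 cells at any stage.

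Krt14-positive and Krt8/18-positive cells were compared next, because basal and luminal cells of the duct differ in their contact with the basement membrane. At puberty 11 of 44 members were higher in Krt14-positive cells by a log2 ratio of at least 1, where 7.51% of all genes were, and 9 were lower, where 21.6% were. In the adult 13 were higher, against 7.45% of all genes, and 7 lower, against 19.5%. Only 5 cells were Krt14-positive at each stage, so cells with both keratins are given beside them. Without the fibroblast-marker cells both stages had counts of 13 and 4, against 7.65% and 21.2% of all genes at puberty and 7.49% and 19.1% in the adult.

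Of the 3 groups, the basement membrane chains differed most in summed level, though not every member did. At puberty 3 of the 8 were higher in Krt14-positive cells (7.51% of all genes) and 1 was lower (21.6%). The lower one was Col4a5, at a log2 ratio of -2.24. In the adult 5 were higher (7.45%) and 0 lower (19.5%). There Col4a5 and Col4a6 had log2 ratios of 5.37 and 4.36, but 0.57 and -0.26 without the top cell of each class. The summed level of the 8 chains was 3968 CPM in pubertal Krt14-positive cells, 2425 in cells with both keratins and 332 in Krt8/18-positive cells. The 5 Krt14-positive cells ranged from 3408 to 5123 CPM with a median of 3966, and the 80 Krt8/18-positive cells from 0 to 2959 with a median of 59.2, so these groups of cells did not overlap. In the adult the levels were 5053, 2296 and 328 CPM. There the 5 Krt14-positive cells ranged from 293 to 8844 and the 22 Krt8/18-positive cells from 0 to 7830 (medians 4200 and 14.4), with 1 of the latter holding 87.5% of that class's reads.

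Col4a1 was found in all 5 pubertal Krt14-positive cells, at 2595 CPM (cells from 1887 to 3509), and in 22 of 24 cells with both keratins, at 1039 CPM. Of the 80 Krt8/18-positive cells, 29 had it, at 105 CPM. The log2 ratio of the first over the last was 4.56. In the adult the levels were 1793, 288 and 38.2 CPM, and 5 of 5, 13 of 14 and 7 of 22 cells had it, a log2 ratio of 5.38. Col4a2 had 932, 977 and 85.8 CPM at puberty and 2051, 1473 and 274 in the adult. A single adult Krt8/18-positive cell held 96.1% of that last level, and 11.0 CPM were left without it. Col18a1 had 391, 152.6 and 7.603 CPM at puberty. In the adult it had 607 CPM in Krt14-positive cells, but 98.2% of this came from 1 cell, and without it 14.3 CPM were left, against 96.4 in cells with both and 1.79 in Krt8/18-positive cells.

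**Figure D5:**
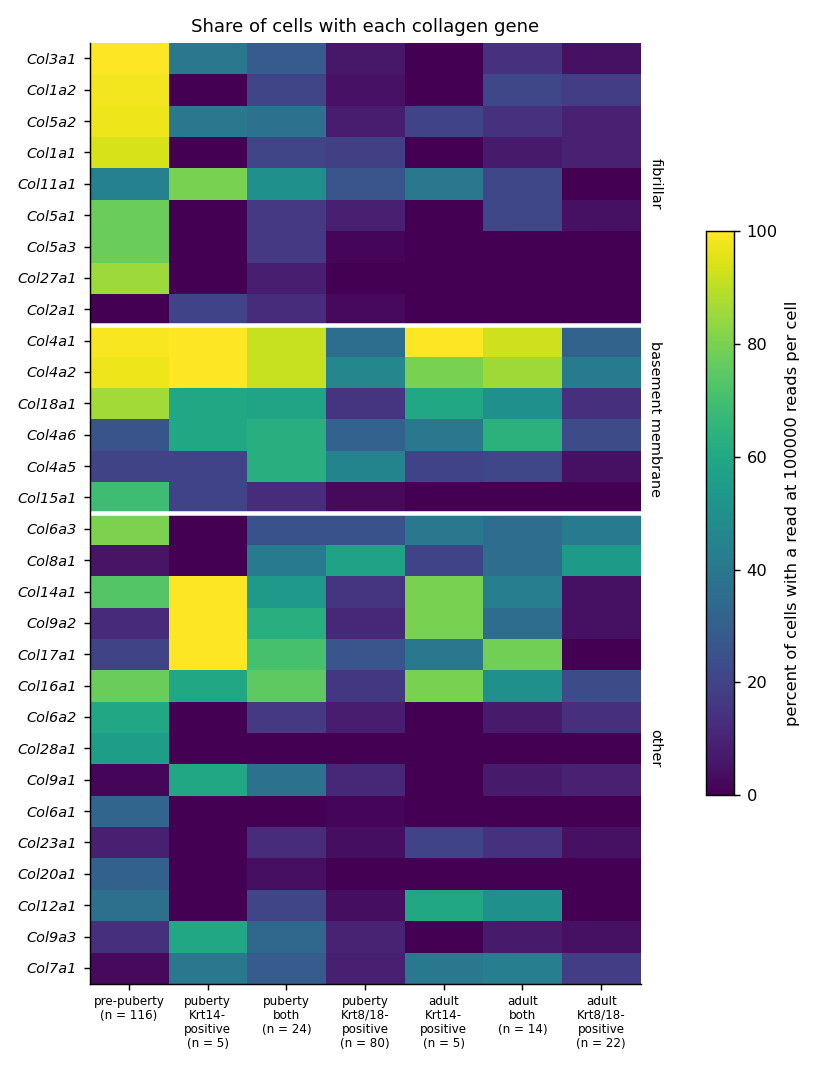
Percent of cells with at least 1 read at 100000 reads per cell for 30 collagen genes (rows, grouped as fibrillar, basement membrane and other) in pre-pubertal cells and in the keratin classes of puberty and the adult (columns, with cell numbers). The fibrillar rows other than Col11a1 and Col2a1 are bright at pre-puberty, Col4a1 and Col4a2 also in Krt14-positive cells and cells with both keratins, and Col8a1 is brightest in Krt8/18-positive cells, at 57.5% and 54.5%.

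Several other chains were found with Krt14. Col9a2 was in 5 of 5, 15 of 24 and 9 of 80 pubertal cells of the 3 classes, at 507, 257 and 20.9 CPM, and in 4 of 5, 5 of 14 and 1 of 22 adult cells, at 756, 299 and 0.0995 CPM. In the adult 1 cell held 83.5% of the Krt14-positive level, with 165 CPM left without it. Col17a1 was in 5 of 5, 17 of 24 and 21 of 80 pubertal cells, at 370, 198 and 17.3 CPM. In the adult it was in 2 of 5 and 11 of 14 cells, at 134 and 388 CPM, and the 22 Krt8/18-positive cells had no read. Col14a1 was in all 5 pubertal Krt14-positive cells, at 457 CPM, of which 1 cell held 83.5%. It had 122 CPM in cells with both and 74.9 in Krt8/18-positive cells, and 85.7 CPM were left in the Krt14-positive class without its top cell. Col16a1 had 90.5, 55.5 and 6.94 CPM at puberty and 242, 24.5 and 43.2 in the adult, where 1 cell held 94.9% of the Krt8/18-positive level. Col9a1 had 685, 111 and 8.203 CPM at puberty, where 1 cell held 83.0% of the Krt14-positive level and 164 CPM were left without it. In the adult it had no read in Krt14-positive cells, and 1 cell held all of the 124 CPM in cells with both.

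Col8a1 stood out on the Krt8/18-positive side. At puberty it was in 46 of 80 Krt8/18-positive cells (57.5%), at 409 CPM with cells from 0 to 2984 and a median of 23.6, and in 10 of 24 cells with both, at 259 CPM. None of the 5 Krt14-positive cells had a read. At 3 reads over those cells the summed Krt8/18-positive level would be at least 557-fold higher. This bound covers read counting only, and 5 cells limit the share of such cells with Col8a1 only loosely. In the adult it was in 12 of 22 Krt8/18-positive cells, at 311 CPM, of which 1 cell held 65.0%, in 5 of 14 with both, at 48.8 CPM, and in 1 of 5 Krt14-positive cells, at 23.5 CPM. Col6a3 was in 20 of 80 pubertal Krt8/18-positive cells, at 64.3 CPM, in 6 of 24 with both, at 6.20 CPM, and in none of the 5 Krt14-positive cells. In the adult it was in 9 of 22, 5 of 14 and 2 of 5 cells, at 169, 318 and 18.6 CPM.

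At puberty the fibroblast-marker cells of the Krt8/18-positive class held 92.4% of that class's fibrillar reads. Col3a1 had 191 CPM in Krt14-positive and 454 in Krt8/18-positive cells, a log2 ratio of -1.22, and without fibroblast-marker cells the ratio was 3.56. Then again 1 Krt14-positive cell held 99.7% of its class's Col3a1 reads, so neither value describes the class. Col1a2 had 0.245 and 96.0 CPM (log2 ratio -4.27, and 0.062 without those cells), and Col1a1 had 0 and 70.8 CPM (log2 ratio -0.67 without them). Col11a1 was the fibrillar chain seen in most Krt14-positive cells, 4 of 5 at puberty against 12 of 24 with both and 21 of 80 Krt8/18-positive cells, at 136, 131 and 35.1 CPM. Its log2 ratio there was 1.82, and 0.78 without the top cell of each class. In the adult it had 163, 95.3 and 0.199 CPM, with 96.7% of the first in 1 cell.

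Pre-pubertal cells with Krt14 above 40 RPKM numbered 17, of which 7 also had Krt8 or Krt18 above it. Several of their collagens stood near those of the 97 cells with neither keratin, but not Col3a1 and Col1a1. Col3a1 had 2989 CPM in the 17 cells and 5726 in the 97, and Col1a1 267 and 713. Col4a1 had 1037 and 1013 CPM, Col18a1 314 and 315, and Col27a1 169 and 176 in these groups, and the Schwann list a median of 9 of 12 markers in both. Fibrillar collagens were at 5610 and 9167 CPM, and at 7421 over all pre-pubertal cells without the fibroblast-marker cells, none of which was among the 17. Col17a1 had 123 CPM in 10 of 17 cells (58.8%) against 6.25 in 14 of 97 (14.4%). Col4a6 had 144.7 and 5.77 CPM, in 82.4% and 15.5% of cells, and Col4a5 67.3 and 7.25 CPM, in 76.5% and 11.3%. These 3 chains were among the 8 members whose level was higher at puberty. The 17 cells had a median of 9 of 10 basal markers against 2 in the 97. The basal list includes Krt14, by which the 17 cells were picked.

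The genes that make, join and bind collagens were counted by list. Of 21 processing enzymes and chaperones, which hydroxylate, fold and carry the chains, 10 were higher at pre-puberty than at puberty (9.43% of all genes were) and 0 lower (10.5% of all genes), with a median log2 ratio of 0.70. The largest differences at 50 CPM or more were those of P3h3, a prolyl 3-hydroxylase (50.5 against 5.43 CPM), Crtap, a protein of the prolyl 3-hydroxylation complex (74.4 against 19.2), and Fkbp14, a peptidyl-prolyl isomerase (86.0 against 25.3). Of 15 genes for propeptide cleavage and cross-linking, 5 were higher (9.43% of all genes) and 2 lower, which is near the 10.5% of all genes. Adamts3, a procollagen protease, had 16.1 CPM at pre-puberty in 4.31% of cells and 707 at puberty in 40.3%, and Tgm2, a transglutaminase, 2.70 and 149.3 CPM. Bmp1, which removes the carboxy-terminal propeptide, had 112 and 53.5 CPM.

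The same shares of all genes, 9.43% higher and 10.5% lower, stand beside the next 3 lists. Of 12 receptors, 5 were higher and 2 lower. Itga1 and Itga2, which are among the collagen-binding integrin chains, had 140 and 94.9 CPM at pre-puberty against 3.84 and 6.29 at puberty. Adgrg6, an adhesion receptor of type IV collagen required in Schwann cells, had 452 against 74.2. Of 12 proteases and inhibitors, 3 were higher and 1 lower, the latter near the share of all genes. Among the higher ones was Timp3, a matrix-bound inhibitor, with 2775 against 394 CPM in 99.1% and 41.2% of cells. Mmp2, a type IV collagenase, had 306 against 41.2 CPM, and Timp2, another inhibitor, 515 against 252. Of 13 matrix partners, 8 were higher and 1 lower, with a median log2 ratio of 2.70. Nid2, which links laminin to type IV collagen, had 785 CPM in 94.8% of pre-pubertal cells and 4.04 in 4.20% of pubertal cells. Tnc, tenascin C, had 378 and 0.146 CPM, and Hspg2, the proteoglycan perlecan, 234 and 9.48 CPM.

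The remaining members were seen little or not at all. Besides Col24a1, Col11a2, Col4a3, Col4a4, Col8a2 and Col10a1, the 8 genes Col19a1, Col13a1, Col22a1, Col25a1, Col26a1, Col6a4, Col6a5 and Col6a6 stayed under 10 CPM in pre-pubertal cells and in the Krt14-positive and Krt8/18-positive cells of both later stages. Where they had reads these lay mostly in single cells, such as 99.2% of the 125 pre-pubertal reads of Col6a4 and 95.7% of the 139 pubertal reads of Col6a5. Col13a1 had 1 read and Col22a1 had 3 reads in all kept cells, and Col26a1 had none, which says only that they were not detectable at this depth. Of the 43 members with a read, 25 had their highest CPM at pre-puberty, against 12 at puberty and 6 in the adult. All genes were not counted in this way, so no background stands beside these numbers. They also weigh members with few reads, such as Col6a4 with 129 in all kept cells, like the abundant ones.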

How the data were processed

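Single cells from mouse mammary glands were captured on Fluidigm C1 chips after a sort that used CD24 and CD29 and removed CD31, CD45 and TER-119-positive cells. The deposited values are raw counts of read pairs per Entrez gene for each cell, not normalised and without molecular identifiers, so intervals cover counting error only. Per the labels and the study's methods, the authors mapped read pairs to mm10 with Subread 1.4.6 and assigned them with featureCounts to a built-in RefSeq annotation. The files also give the authors' deposited gene length, used for RPKM. Of 27179 genes, 1904 without a symbol, 119 ribosomal protein and 15 mitochondrial genes were removed. Summed counts were turned into CPM and log2 ratios with pandas 2.3.3, numpy 2.4.6 and scipy 1.17.1. The calculation was also run on simulated counts in which all cells of a group shared the same profile. That run did not cover differences between cells, so it does not bear on values held by single cells. A member was called higher or lower at a log2 ratio of 1 or -1, with no filter on low genes except where a mean of 10 CPM is stated. Collagens at 100 CPM or more in any of 5 groups (pre-pubertal cells and the Krt14-positive and Krt8/18-positive cells of each later stage) are named with full values, those from 10 to 100 CPM briefly, and of each pathway list up to 3 genes with the largest absolute log2 ratio between pre-puberty and puberty among those at 50 CPM or more at either. The members and lists were chosen with earlier results of these data known. A series-wide count table was not used here, since its column numbers differ from some sample titles. Its columns of cell values repeat those of the single files.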

Additional observations from a re-analysis of the deposited data

Results flagged for a closer look

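Cells below the coverage filter, which entered no comparison above, also carried collagen reads. The 28 pre-pubertal cells below it had a summed collagen level of 11918.2 CPM (11627 to 12215), with Col3a1 at 6554 CPM, and the 116 kept cells had 12044.5. The 17 pubertal cells below it had 3178.98 CPM (3053 to 3309), against 3058 in the kept cells. The 22 adult cells below it had 7725.47 CPM (7467 to 7991), against 3031 in the kept cells, but without the cell with most collagen reads their level was 2257 CPM, and they had no Col3a1 read.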

How the results depend on the processing

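Of 122 recomputed counts of members, 113 stayed within 1.5 times the reported one. For single members called higher or lower, log2 ratios were recomputed only for those named with full values, which gave 84 called values. Of their 951 recomputed log2 ratios, 876 kept their side of the threshold. Called members with lower levels are not among them, so how their calls depend on the processing was not tested. By the Poisson interval of the reported ratio, which covers counting error only, 371 of the 951 stayed inside. A further 560 left it without a change of sign, and 20 changed sign. Of 238 recomputed summed levels and their ratios, 69 stayed inside, 168 left it and 1 called ratio changed sign. The cause was not tested for the values that moved. With 1 CPM added in place of 5, the members higher at puberty than in the adult were 13 (19.3% of all genes were). Those lower in pubertal Krt14-positive than Krt8/18-positive cells were 14 (29.0% of all genes). Without the top cell of each gene, 2 members were lower at puberty than in the adult (2.84% of all genes). In adult Krt14-positive cells 3 were lower (14.7% of all genes), and Col4a6 there had a log2 ratio of -0.26. Without fibroblast-marker cells, 4 members were lower in Krt14-positive cells at puberty (21.2% of all genes) and 4 in the adult (19.1%). The pubertal class ratios were then 3.56 for Col3a1 and 0.062 for Col1a2, and Col1a2 at puberty against the adult had -0.95.

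In cells of 200000 to 600000 reads the fibrillar sum at puberty against the adult had a log2 ratio of -0.83, and Col4a5 at pre-puberty against the adult 0.029. This left 1 Krt14-positive against 41 Krt8/18-positive cells at puberty and 4 against 13 in the adult, with Col3a1 at 0.84 and Col9a3 at -2.74 at puberty and Col4a5 at -0.062 in the adult. Classes set by any keratin read held 1 against 73 and 1 against 12 cells. The members higher in adult Krt14-positive cells were then 7, against 3.05% of all genes. Col14a1 was at -3.20 and Col11a1 at -0.42 at puberty, and Col18a1 at -0.26 and Col4a6 at -0.72 in the adult. With inclusive classes, in which cells with both keratins joined the Krt14-positive cells and Krt8/18-positive cells had to lack Krt14 reads, 29 stood against 55 and 19 against 6 cells. Then 20 members were higher and 2 lower in the adult, against 16.3% and 8.92% of all genes. Col5a1 was at 2.98 and Col4a5 at 0.16 at puberty. In the adult Col9a1 was at 2.00, Col3a1 at 3.99, Col6a3 at 2.69, Col1a1 at 0.45, Col5a1 at 1.05 and Col1a2 at 2.05.

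Members found in at least 50% of cells were 2 at puberty and 2 in the adult. Asking for 3 reads gave 0 and 0, and 0 in adult Krt8/18-positive cells in place of 1. Unthinned cells gave 6 and 5, and 3 in pubertal Krt8/18-positive, 11 in adult Krt14-positive and 3 in adult Krt8/18-positive cells. No paired analysis was possible because no test was made and no cell is tied to a mouse. With 1 sample a stage, mice, litters and capture runs cannot be told apart from stage.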
